A study of Saccharomyces cerevisiae with 4 samples.

Results

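The genes described here make the coenzymes pyridoxal 5'-phosphate (vitamin B6) and thiamine diphosphate (vitamin B1) in *Saccharomyces cerevisiae*. They are the 10 genes *SNZ1*, *SNZ2*, *SNZ3*, *SNO1*, *SNO2*, *SNO3*, *THI4*, *THI20*, *THI21* and *THI22*, a set given by gene name and chosen with earlier results of these data known. A probe set, the group of array probes that reads a transcript, was named for 8 of them, so 8 of 5498 probe sets named for 1 *S. cerevisiae* gene were followed. The probe sets of *SNZ3* and *SNO3* carry the suffix for probes shared between transcripts. *SNZ2* and *SNO2* had no probe set under their own names. They are near-identical copies of *SNZ3* and *SNO3*, and the shared signals cannot be divided between the copies.

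The samples are total RNA of W303-1A, a haploid laboratory strain of mating type a, with mutant alleles of *URA3*, *LEU2*, *HIS3*, *TRP1*, *CAN1* and *ADE2* in both groups. By the labels, cells carried pCM189, a centromeric plasmid with a tet promoter that doxycycline would shut off. They grew to mid-log phase without doxycycline or uracil in 2% glucose. Figure legends of the study name a different plasmid for its tet constructs, a difference left unresolved here. In WT, measured on 1 array, the plasmid was empty. In RECQL5, measured on 3 arrays that the labels call biological replicates, it expressed FLAG-tagged human RECQL5, a DNA helicase of the RecQ family. The labels name replicates 2 and 3 of RECQL5 inconsistently in 1 field, and their titles and strain fields place them in the group. The study describes the medium as selective synthetic complete medium, made with yeast nitrogen base. Its thiamine and pyridoxine content was not listed in the sources used here.

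In yeast, Snz proteins are the synthase and Sno proteins the glutaminase of a complex that builds pyridoxal 5'-phosphate, the coenzyme of transaminases and many other enzymes of amino acid metabolism. Each *SNO* gene lies head to head with its *SNZ* gene. *SNZ1* and *SNO1* are known as genes of nutrient limitation and stationary phase, while the *SNZ2* and *SNZ3* pairs lie beside genes of the *THI5* family and are known to follow the thiamine genes. Thiamine is joined from a thiazole ring, made by Thi4, and a pyrimidine, which the Thi5 family makes from pyridoxal 5'-phosphate and histidine and which Thi20 and Thi21 phosphorylate. Thiamine synthesis genes are known to be repressed when thiamine is plentiful.

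Transcripts for vitamin B6 synthesis and *THI20* fell in RECQL5 cells, whereas *THI4*, *THI21* and *THI22* were not called. Of the 8 probe sets, 5 averaged log2(600), which is 9.23, or more over the arrays, the level filter of the study, and were tested. The study set that filter at the median level of meiotic genes that it took as not expressed. The 4 probe sets of *SNZ1*, *SNZ3*, *SNO3* and *THI20* fell and 0 rose, by limma where a call needed an adjusted p no higher than 0.1 together with a 1.5-fold difference. The same rule called 7.75% of the 4156 tested probe sets lower and 9.74% higher. *THI22*, the only other tested probe set, was the 1 with an unadjusted p under 0.05 on the higher side. Without the level filter, 5 of the 8 probe sets were called lower, *SNO1* in addition, and 0 higher. That fit of 5498 probe sets called 8.55% lower and 10.4% higher.

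All of these comparisons rest on a single WT array. The limma fit takes its 2 residual degrees of freedom from RECQL5 alone and assumes that WT varies likewise. An exact permutation test of 1 array against 3 cannot give a p below 0.25, so none was run. The study states that its control array was standardized with published arrays, without saying how, and whether the deposited WT values precede that step is not known here. At the same fold and adjusted p, the study reported far fewer altered genes in each direction, and more lowered than raised genes. Here 405 probe sets were called higher and 322 lower, and the reason for this mismatch was not tested. Across tested probe sets Pearson's r was 0.989 to 0.996 between RECQL5 arrays and 0.918 to 0.931 between WT and a RECQL5 array. The 5 mating type a genes examined read 10.99 to 13.68 on the 4 arrays. Of the 2 genes of the opposite mating type with a probe set, the receptor gene *STE3* read at most 7.11. The agglutinin gene *SAG1* read 9.07 in WT and 9.42, 9.26 and 9.35 in RECQL5, there above the level filter. Among 3 diploid or meiotic genes, *SPO11* read 9.90 in WT, above the filter, and 8.85, 8.87 and 7.85 in RECQL5. The other genes of that list, *IME1* and *NDT80*, read at most 8.25 and 8.52.

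*SNZ1* (YMR096W, probe set 1772511_at), which encodes the pyridoxal phosphate synthase subunit, read 10.14 on the log2 scale on the WT array. It read 9.42, 9.04 and 9.54 on RECQL5 arrays 1, 2 and 3. All 3 RECQL5 values lay below WT, with array 2 the lowest and below the level filter. The RECQL5 mean was 57.3% of the WT level, a change of -0.80 ± 0.20 (SE of the fit, n = 3 against 1, adjusted p = 0.0189, limma). Of all tested probe sets, 4.11% had a lower change.

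*SNO1* (YMR095C, 1772880_at), the glutaminase partner gene that faces *SNZ1*, gave the largest difference of the 8 probe sets. It read 7.93 in WT and 6.41, 6.39 and 6.79 on RECQL5 arrays 1 to 3. RECQL5 arrays 1 and 2 nearly coincided, array 3 was higher, and the nearest lay 1.14 log2 units below WT. *SNO1* was under the level filter on all 4 arrays and entered only the fit without it, where it changed by -1.40 ± 0.18 (adjusted p = 0.00541, limma), 37.8% of the WT level. The 95% intervals of the 2 partners in that fit, -1.88 to -0.93 for *SNO1* and -1.34 to -0.26 for *SNZ1*, overlapped, and the difference between them was not tested.

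The shared probe set of *SNZ3* (YFL059W, 1770343_s_at), which can also read *SNZ2*, read 10.61 in WT. It read 9.84, 9.68 and 9.38 on RECQL5 arrays 1 to 3. Here array 3 was the lowest of the RECQL5 arrays, whereas array 2 was the lowest for *SNZ1*. The change was -0.97 ± 0.17 (adjusted p = 0.0072, limma), so that RECQL5 stood at 50.9% of WT. This was the lowest change among the tested members.

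The shared probe set of *SNO3* (YFL060C, 1778453_s_at), which can also read *SNO2*, read 10.31 in WT and 9.62, 9.72 and 9.68 on the RECQL5 arrays. The RECQL5 arrays lay within 0.10 log2 units of each other, and the nearest was 0.59 below WT. The change of -0.63 ± 0.07 (adjusted p = 0.00166, limma) was close to the 1.5-fold threshold, which is 0.58 on the log2 scale. Its 95% interval ran from -0.81 to -0.46. For the shared pair the *SNZ* side therefore had the larger difference, and for the *SNZ1* and *SNO1* pair the *SNO* side had it, and neither contrast was tested. The gene table of the reference strain gives the 2 copies of each shared pair the same length, 897 bases for *SNZ2* and *SNZ3* and 669 for *SNO2* and *SNO3*, against 894 for *SNZ1* and 675 for *SNO1*.

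**Figure D1:**
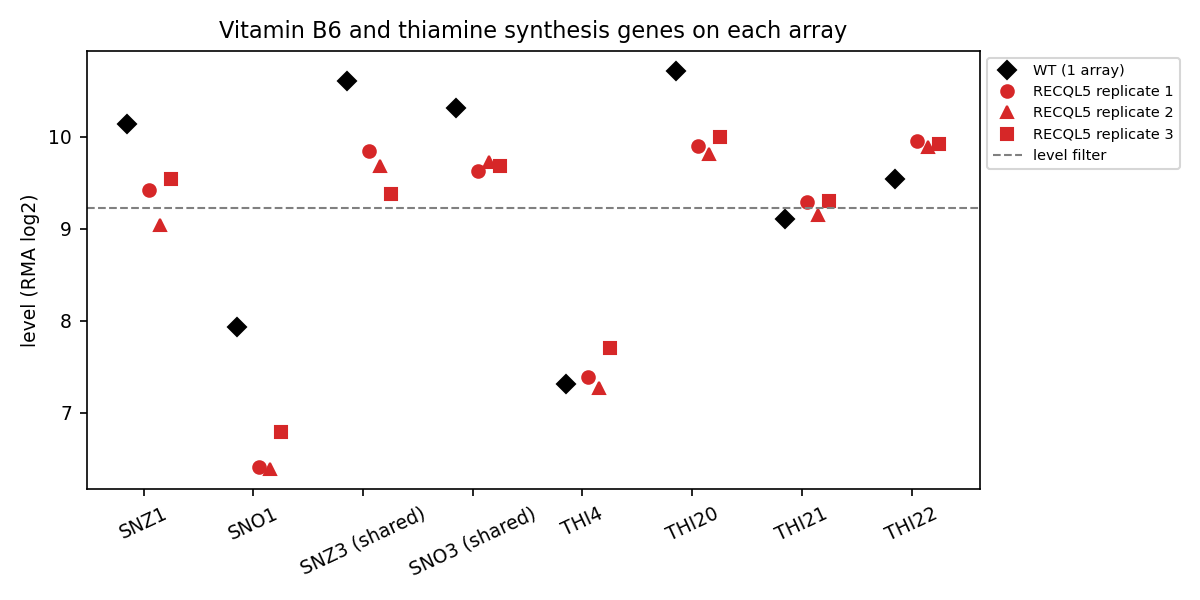
Level of each probe set (RMA log2, vertical axis) on the WT array (black diamonds) and the 3 RECQL5 arrays (red circles, triangles and squares for replicates 1, 2 and 3), with the level filter of 9.23 as a dashed line. WT lies above every RECQL5 array for *SNZ1*, *SNO1*, *SNZ3*, *SNO3* and *THI20*, below them for *THI21* and *THI22*, and among them for *THI4*.

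Among the thiamine genes, *THI20* (YOL055C, 1770923_at) encodes an enzyme that phosphorylates the pyrimidine and also has a thiaminase domain. It read 10.71 in WT and 9.90, 9.81 and 9.99 on RECQL5 arrays 1 to 3. The RECQL5 arrays lay within 0.18 log2 units of each other, and the nearest was 0.72 below WT. The change was -0.81 ± 0.09 (adjusted p = 0.00158, limma), 56.9% of the WT level, and 3.95% of tested probe sets had a lower change.

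The 2 relatives of *THI20* were not called in either direction. *THI22* (YPR121W, 1769716_at), whose product resembles Thi20 and whose own role in thiamine synthesis is unclear, read 9.54 in WT and 9.96, 9.88 and 9.92 in RECQL5. All 3 RECQL5 arrays lay above WT, within 0.07 log2 units of each other. The change of 0.38 ± 0.06 (adjusted p = 0.00596, limma) stayed under 1.5-fold, with a 95% interval of 0.22 to 0.54 that did not meet the interval of *THI20*, -1.03 to -0.60, and the difference between them was not tested. *THI21* (YPL258C, 1770700_at), which encodes a second pyrimidine phosphate kinase, read 9.11 in WT and 9.28, 9.15 and 9.30 in RECQL5. Its mean of 9.21 fell just short of the level filter. Without the filter its change was 0.14 (95% interval -0.09 to 0.37, adjusted p = 0.239, limma), an interval that lay inside 1.5-fold in both directions.

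*THI4* (YGR144W, 1770071_at), the thiazole synthase gene, was under the level filter on all 4 arrays. It read 7.32 in WT and 7.39, 7.27 and 7.71 in RECQL5. WT lay between RECQL5 arrays 2 and 1, and RECQL5 array 3 stood above the others. The change without the filter was 0.14 (95% interval -0.33 to 0.61, adjusted p = 0.554, limma), an interval that reached past 1.5-fold upwards and stopped short of it downwards. RECQL5 array 3 was the highest RECQL5 array for *THI4*, *SNO1*, *SNZ1*, *THI20* and *THI21*, and the lowest for *SNZ3*.

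The synthesis genes were next set beside the rest of both pathways. Of 5 tested genes for salvage and uptake of vitamin B6, 0 were called in either direction by limma, with or without the level filter, and 2 had an unadjusted p under 0.05, both lower. These were *PDX3*, the oxidase that makes pyridoxal phosphate from other B6 forms (11.68 in WT, 11.22, 11.28 and 11.15 in RECQL5, change -0.46 ± 0.07, adjusted p = 0.0052), and *TPN1*, the pyridoxine transporter gene (-0.24 ± 0.06). The kinase gene *BUD16* (0.06), its relative *BUD17* (-0.07) and *YBL036C* (0.19), of a family that keeps pyridoxal phosphate levels in balance, complete the list.

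Around the thiamine ring genes, the differences had no common direction. The *THI5* family was read by 1 shared probe set, named for *THI13*, which read 8.96 in WT and 8.28, 8.27 and 8.26 in RECQL5. It was under the level filter, and without the filter it was called lower (-0.69 ± 0.06, adjusted p = 0.0029, limma). *THI2*, an activator gene of thiamine synthesis also under the filter, read 8.88 in WT and 8.33, 8.20 and 8.05 in RECQL5, and was called lower in the same fit (-0.69 ± 0.12, adjusted p = 0.0106). The other regulators, *THI3* (-0.05) and *PDC2* (0.18), were not called. *THI6*, which joins the 2 rings, differed by -0.18 ± 0.08, and *THI80*, the kinase that makes thiamine diphosphate, by 0.49 ± 0.07 (adjusted p = 0.0030), under 1.5-fold.

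The 2 largest differences among the genes for thiamine assembly, phosphorylation and transport had opposite signs. *NRT1*, a nicotinamide riboside transporter gene whose product also takes up thiamine weakly, read 10.85 in WT and 9.15, 9.38 and 8.88 in RECQL5, and fell (-1.71 ± 0.18, adjusted p = 0.00164, limma), with RECQL5 arrays 1 and 3 under the level filter. *PHO3*, a thiamine-repressible acid phosphatase gene whose product releases thiamine from its phosphates, read 10.64 in WT and 12.23, 12.24 and 12.10 in RECQL5, and rose (1.55 ± 0.08, adjusted p = 0.000695). *THI7*, the main thiamine transporter gene, read 10.61 in WT and 10.58, 10.65 and 11.26 in RECQL5. WT lay within the RECQL5 range, array 3 stood apart, and the change was 0.22 ± 0.27. Of the 10 genes for assembly, phosphorylation and transport, 5 were tested, 1 rose and 1 fell. Over all tested probe sets, 9.74% were called higher and 7.75% lower. *NRT1* passed the level filter through its WT value, with a RECQL5 mean of 9.14. Where every array had to pass, *NRT1* was not tested, and 1 gene of the list was called higher and 0 lower. The 5 under the filter (*THI72*, *THI73*, *THI74*, *TPC1* and *PET18*) differed by -0.05 to 0.30.

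**Figure D2:**
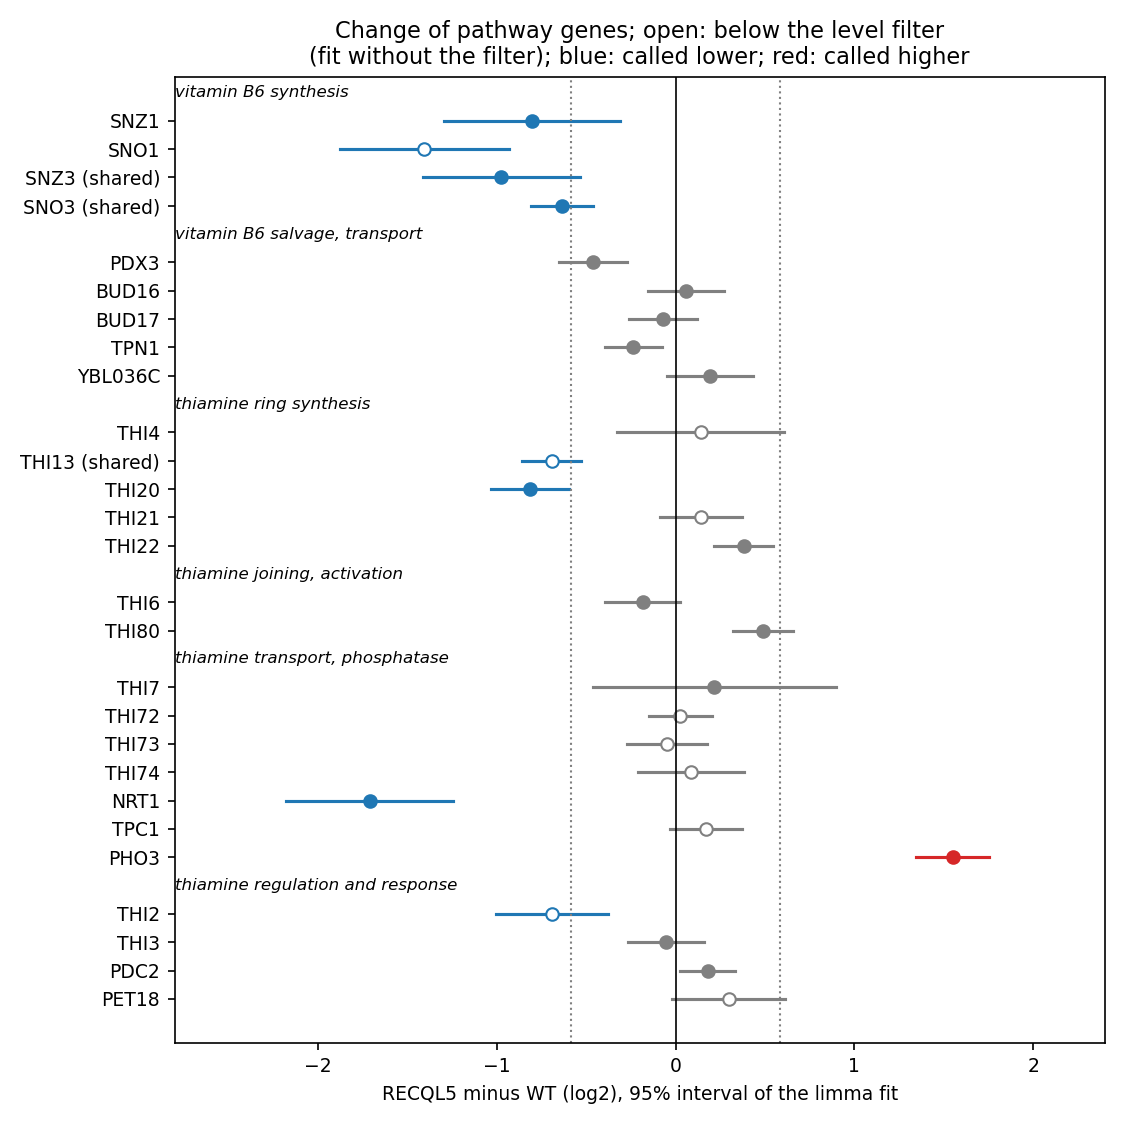
Difference between the RECQL5 mean and WT (log2, horizontal axis) with the 95% interval of the limma fit for the genes of both pathways, grouped by role. Filled points passed the level filter and open points come from the fit without it, blue points were called lower and red higher, and dotted lines mark 1.5-fold. All 4 *SNZ* and *SNO* probe sets lie to the left of the lower line, from -1.40 to -0.63, and *PHO3* at 1.55 is the only red point.

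Genes for enzymes that use each coenzyme were also examined. Of 7 tested genes for thiamine diphosphate enzymes, 0 were called by limma (median change -0.10, beside 0.02 over all tested probe sets), and 4 had an unadjusted p under 0.05, 1 higher and 3 lower. *PDC5*, a minor pyruvate decarboxylase gene, had the largest difference (0.55 ± 0.10, adjusted p = 0.0062) and was called higher (0.60) without RECQL5 replicate 1. *KGD1*, of the 2-oxoglutarate dehydrogenase, followed with -0.31 ± 0.12. The major pyruvate decarboxylase gene *PDC1* differed by 0.01.

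Of 32 tested genes for pyridoxal phosphate enzymes, 8 fell and 0 rose by limma (median change -0.28), beside 7.75% of all tested probe sets called lower. At an unadjusted p under 0.05, 5 were higher and 19 lower. The largest falls were those of the glutamate decarboxylase gene *GAD1* (-1.34 ± 0.13), the sulfhydrylase gene *MET17* (-1.19 ± 0.09), the kynureninase gene *BNA5* (-1.10 ± 0.08, under the level filter on RECQL5 array 3) and the 4-aminobutyrate transaminase gene *UGA1* (-0.86 ± 0.10). The other 24 tested genes were not called, and the highest value was 0.56 for *ALT2*, which was called higher (0.65) without RECQL5 replicate 3. Of the 8 that fell, 2 (*HIS5* and *SER1*) are also in the list of Gcn4 targets below. Without the level filter, 9 of 35 were called lower and 0 higher, beside 8.55% and 10.4% of all probe sets.

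*SNZ1* and *SNO1* are known both as stationary phase genes and as targets of the transcription factor Gcn4, which is active in amino acid starvation, and genes of both kinds were examined. In the post-diauxic and stationary phase list 11 of 17 tested genes fell and 0 rose by limma, with a median change of -0.70. Over all tested probe sets, 7.75% were called lower. At an unadjusted p under 0.05, 0 genes of this list were higher and 14 lower. Without the level filter, in the fit that also holds *SNO1*, 9 of 20 were called lower, beside 8.55%. The summed linear level of the 17 was 126262 in WT and 68808 to 77755 in RECQL5. *HSP26*, for a small heat shock protein (-2.75), *CTT1*, for a catalase (-1.92), *SOL4* (-1.66) and *GLK1*, for a glucokinase (-1.38), fell the most. *SOL4* passed the level filter through its WT value of 10.55, and read 9.11, 8.88 and 8.68 in RECQL5. Among Gcn4 targets 11 of 30 tested genes fell and 0 rose (median -0.42), beside the same 7.75%. At an unadjusted p under 0.05, 1 was higher and 22 were lower. Without the filter, 11 of 31 were called lower and 1 higher. The summed linear level of the 30, in which genes with high levels weigh most, was 240181 in WT and 156468 to 169382 in RECQL5. Of the 30 changes, 24 were below 0, and the highest was 0.18. The lysine genes *LYS9* (-2.60), *LYS1* (-2.38) and *LYS20* (-2.02) and the sulfate assimilation gene *MET16* (-1.05) led that list. The part of growth state or of Gcn4 activity in the values of the *SNZ* and *SNO* genes was not tested.

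**Figure D3:**
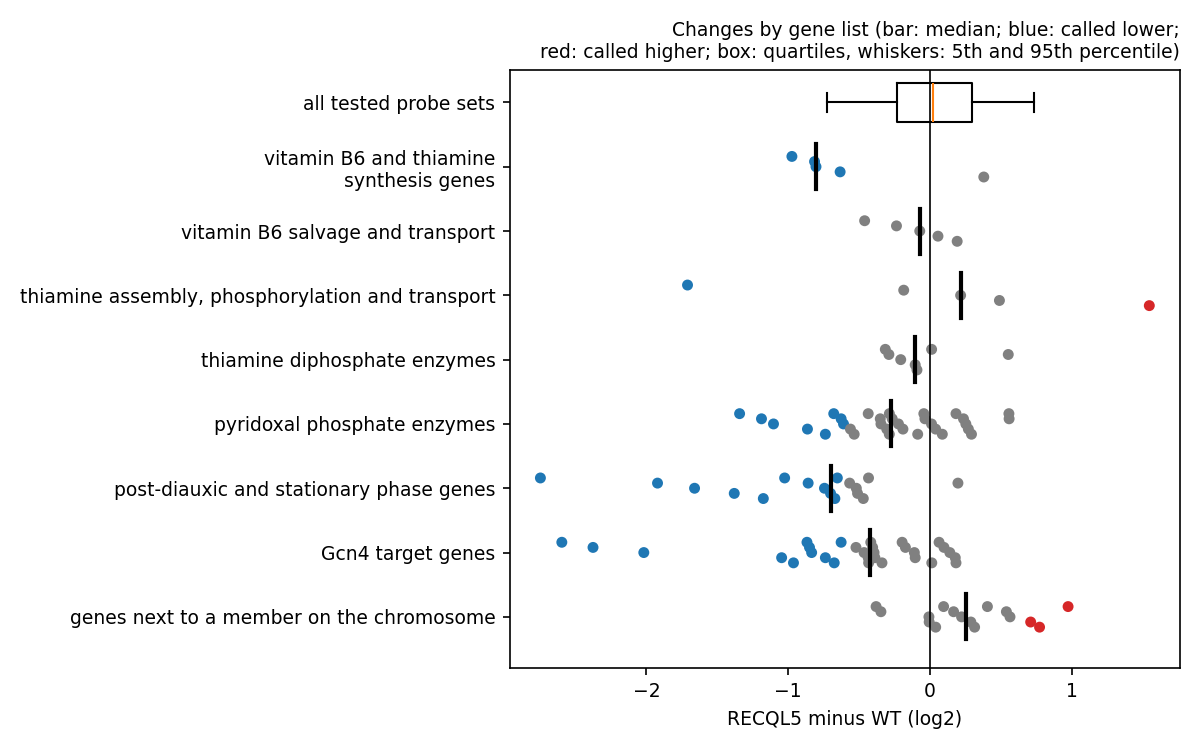
Difference between RECQL5 and WT (log2, horizontal axis) for each tested probe set in the lists with 5 or more, with blue points called lower, red points called higher and black bars at the list median. The box gives the quartiles of all tested probe sets, with whiskers to the 5th and 95th percentile and a median of 0.02, and 4 of the 5 tested synthesis genes lie at -0.63 or below.

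Neighbouring genes were compared because the *SNO* and *SNZ* genes are transcribed away from a common upstream region. The 2 protein-coding genes on each side of each of the 10 genes gave 28 neighbours, of which 21 had a probe set. Of 16 tested, 3 rose and 0 fell by limma, beside 9.74% of all tested probe sets called higher and 7.75% lower, and at an unadjusted p under 0.05 there were 8 higher and 2 lower. The next gene after *SNZ1*, *MTG1* (10.35 in WT, 10.05, 10.04 and 9.91 in RECQL5), differed by -0.35 ± 0.08 (adjusted p = 0.0161), and *CTF13*, next to *SNO1* and under the level filter, by -0.42. Both had the sign of the pair between them at smaller size, and *ATP25* (-0.01) and *UTP15* (0.57) lay one gene further out.

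Beside *SNO3*, the shared probe set of *DDI3*, a cyanamide hydratase gene with a near-identical copy, *DDI2*, beside *SNO2*, read 7.12 in WT and 7.76, 7.63 and 7.85 in RECQL5. Without the level filter it was called higher (0.63, adjusted p = 0.0095, limma), opposite in sign to *SNO3*, a call that was lost without RECQL5 replicate 3 (0.57) and after cyclic loess (0.56). The permease gene *AGP3* and the aryl-alcohol dehydrogenase gene *AAD14*, on the *SNZ* sides of the 2 copies, differed by -0.09 and 0.04. On the *SNO3* side *COS4*, read by a shared probe set, lay one gene further out at 0.41. Next to *THI20*, *GPM3* (0.32) and *PSH1* (0.10) did not share its sign, and one gene further out were *YOL057W* (-0.38) and *AIM39* (0.00). The 3 neighbours that rose were the nucleolar protein gene *ENP2* (0.98 ± 0.07) and *BTN2* (0.77 ± 0.18), both near *THI4*, and the mitotic cyclin gene *CLB2* (0.71 ± 0.12), near *THI22*. *CLB2* read 8.85 in WT and passed the level filter through RECQL5 (9.67, 9.61 and 9.40), and where every array had to pass, it was not tested and 2 neighbours were called higher. The cyclin gene *CLB5*, next to *THI22* and under the level filter, was called higher without it (0.72, adjusted p = 0.00354, limma). The rest, *AXL1* (0.54) and *CTR1* (0.17) near *THI22*, *ECL1* (0.29) and *SKN1* (0.04) near *THI4*, and *APM1* (0.22) near *THI21*, were not called.

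**Figure D4:**
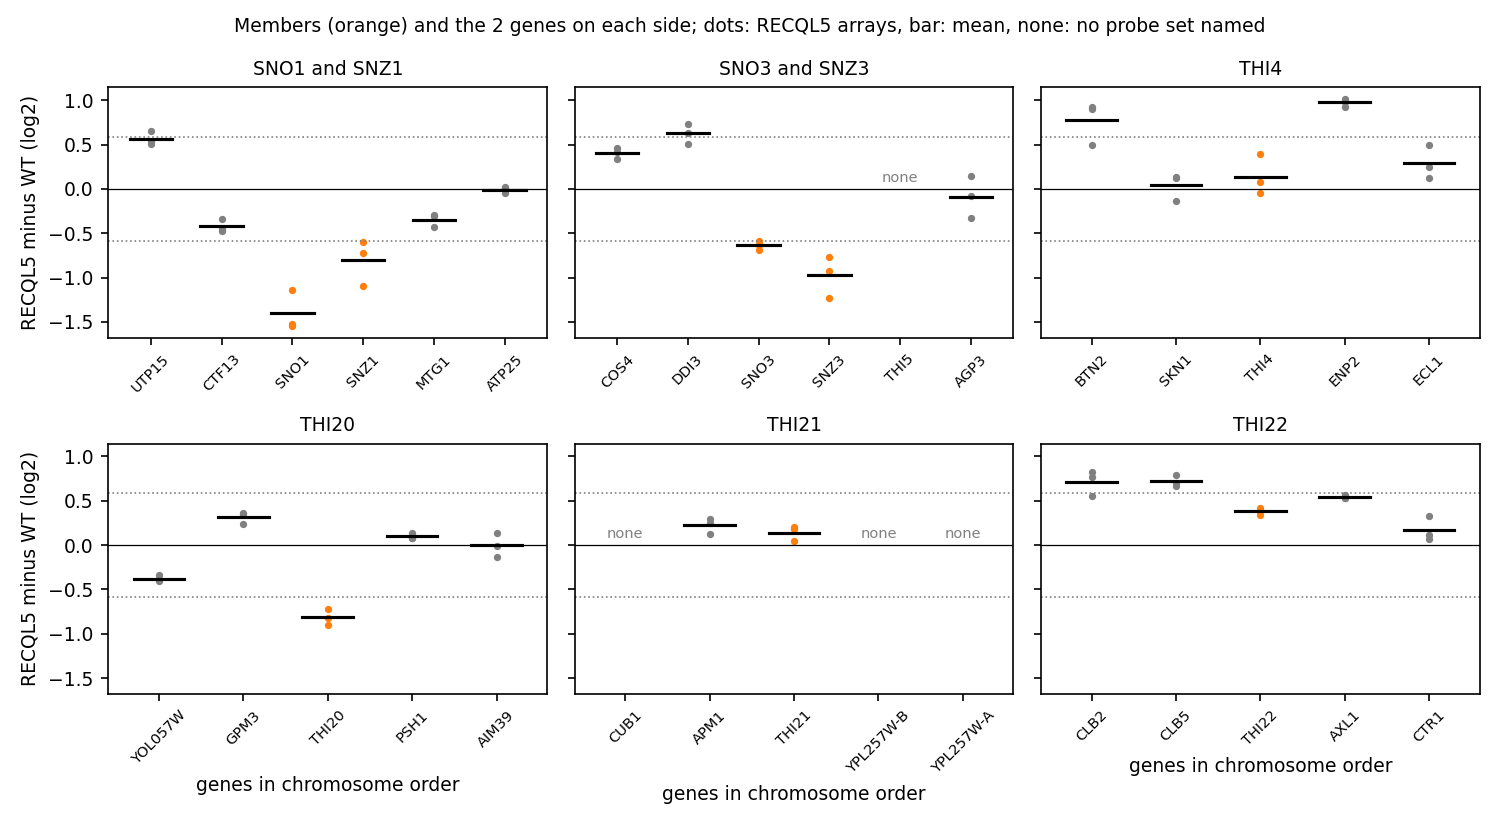
Difference of each RECQL5 array from WT (log2, vertical axis; dots) and their mean (bars) for the synthesis genes (orange) and the 2 genes on each side (grey), in chromosome order. Dotted lines mark 1.5-fold and "none" a gene for which no probe set was named. *SNO1*, *SNZ1*, *SNO3*, *SNZ3* and *THI20* are the only genes shown whose mean lies below the lower line.

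Profiles over the 4 arrays, each centred on its own mean, were also compared by Euclidean distance, which with 4 arrays mostly reflects the distance of WT from RECQL5. The nearest tested probe sets to *SNZ1* were *GSP2*, a Ran GTPase gene (distance 0.20), the pyruvate carboxylase gene *PYC1* (0.21) and the biotin transporter gene *VHT1* (0.22). Those nearest to *SNZ3* were *ECM13* (0.08), *FMP46* (0.10) and the hypoxic repressor gene *ROX1* (0.13). For *SNO3* they were *UBA4* (0.02), *INA17* (0.04) and the ubiquinone synthesis gene *COQ5* (0.05). *THI20* lay nearest to the acyl-CoA binding protein gene *ACB1* (0.05), *BET4* (0.07) and *ERJ5* (0.07). These 12 genes changed by -1.05 (*ECM13*) to -0.61 (*COQ5*) on the log2 scale. Changes close to those of the members follow from choosing the genes by distance.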

How the data were processed

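Total RNA of 4 cultures was labelled with biotin and hybridized to Affymetrix yeast arrays, 1 sample per array. The authors deposited log2 levels per probe set that RMA had background-corrected, quantile-normalized and summarized. RMA and limma are listed in the submitters' processing notes, and their versions were not given in the sources used here. Precision is limited by the number of arrays.

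Of 10928 probe sets, 5498 were named for 1 *S. cerevisiae* gene through the array's probe table, with symbols from the R64 gene table. All were kept, with no choice among probe sets of a gene. Those with a mean of at least log2(600) were tested (4156). RECQL5 was compared with WT in limma 3.58.1 (R 4.3.3, lmFit and eBayes, two-sided, Benjamini-Hochberg over all tested probe sets), and calls needed an adjusted p no higher than 0.1 and a 1.5-fold difference. The methods also give an adjusted p of 0.01, tried as an alternative. Values after ± are SE. The procedure was tested on simulated data in which WT was given the spread of RECQL5. That simulation therefore cannot test the assumption that WT varies likewise.

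Members and lists were chosen with earlier results of these data known, and lists are given by counts and medians, with no set test. All members were named. From each list, up to 4 called genes with the largest change were named, or up to 2 tested where none was called, together with all genes of the 2 pathways, neighbours that complete a comparison and the 3 nearest profiles of each called member. *PDC1*, *ALT2*, *HIS5*, *SER1* and *LEU3* were named after their values were seen. Alternatives were the filter, normalization, shared probe sets, variance prior, threshold and leaving out each RECQL5 array. No coordinates are given because the deposited values name no genome build, and no sequences because none were available here.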

Additional observations from a re-analysis of the deposited data

How the results depend on the processing

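*SNZ3*, *SNO3* and *THI20* kept their direction and their call under every alternative in which they were tested, with changes of -1.08 to -0.85, -0.68 to -0.61 and -0.86 to -0.77. *SNZ1* ranged from -0.91 to -0.66. It was not tested where every array had to pass the level filter, and its call was lost at an adjusted p of at most 0.01 (its own adjusted p was 0.0189). *SNO1*, tested only without the filter, ranged from -1.53 to -1.33 under cyclic loess, median centring and leaving out each RECQL5 array, alternatives chosen after seeing the data, and stayed called. *THI22*, *THI21* and *THI4* stayed higher than WT and uncalled (0.33 to 0.40, 0.08 to 0.19 and 0.01 to 0.23). With shared probe sets left out, 2 members were called lower and not 4, because *SNZ3* and *SNO3* are then absent. *NRT1*, *BNA5*, *SOL4*, *CLB2* and *BET4* were not tested where every array had to pass the filter. *UTP15* was called higher (0.60) without RECQL5 replicate 1, and the Gcn4 target *LEU3*, under the level filter, was called higher (0.70) in the fit without that filter. Leaving out each RECQL5 array gave 4 members called lower each time. Cyclic loess moved the median change over all tested probe sets by -0.04 and median centring by -0.01. No paired analysis was possible because WT and RECQL5 share only replicate number 1. Leaving out WT leaves no comparison, so what that single culture contributes cannot be told apart from the effect of RECQL5.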
